A study of Mus musculus with 8 samples.

Results

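The genes described here are 10 parts of the NRF2, KEAP1 and thioredoxin antioxidant system: Nfe2l2, Keap1, Txn1, Txnrd1, Prdx1, Prdx6, Srxn1, Cat, Nqo1 and Akr1b8. They were taken by gene symbol from a deposited table of 17492 genes, and all 10 had a row. Expression was measured by RNA sequencing of oligo-dT-captured RNA. The cells, of the C57BL/6 mouse strain, were bone marrow-derived macrophages, a culture model in which marrow precursors mature into macrophages. The 4 serine/glycine-free libraries came from cells in medium lacking serine and glycine, and the 4 control libraries from cells in normal medium. No genetic change or further stimulus is named for either group, and the time without serine and glycine is not given in the sources used here. Whether each library had a culture or animal of its own is not stated, so the p-values rest on the spread between these samples alone, and part or all of it may be technical.

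NRF2, encoded by Nfe2l2, is a transcription factor that pairs with small MAF proteins and binds antioxidant response elements in its target genes. KEAP1 is a cysteine-rich adaptor that hands NRF2 to the CUL3 ubiquitin ligase for degradation, and oxidants or electrophiles that modify its cysteines let NRF2 accumulate. NRF2 is therefore known to be controlled largely at the protein level, which transcript counts do not measure. Thioredoxin passes electrons from NADPH, through thioredoxin reductase, to peroxiredoxins and other targets. In macrophages this system handles the hydrogen peroxide made during the oxidative burst.

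Without serine and glycine, 8 of the 10 genes were higher, Keap1 was lower, and Nqo1 was too scarce to tell. The largest change was that of the aldo-keto reductase gene Akr1b8, which rose 1.92-fold, and the smallest rise was that of Nfe2l2, at 1.09-fold. All 10 genes passed the filter on low counts. At an adjusted p under 0.05 (edgeR quasi-likelihood test, Benjamini-Hochberg over 11700 tested genes), 15.9% of all tested genes were higher and 17.3% were lower, 33.2% in all. The median log2 change of the 10 genes was 0.32, against 0.0074 over all tested genes. CPM is a gene's reads scaled to a common library total. On that scale 9 of the 10 genes had no overlap between groups, 8 of them higher. Among all tested genes this held for 30.6%, with 14.5% higher and 16.2% lower. In bulk RNA, fewer cells of a type and less RNA per cell cannot be told apart.

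The library totals lay between 17565291 and 18201599 estimated counts, and the upper limit for a gene with no reads (3 counts) equals 0.165 to 0.171 CPM. This limit and the counting intervals below cover counting error only. No library repeated another: chi-square per degree of freedom was 1.42 to 3.59 in the 12 within-group pairs, above sampling noise. The 9 macrophage markers, among them Adgre1, Csf1r and Cd68, summed to 21300 to 21900 CPM in control and 21800 to 22200 CPM in serine/glycine-free libraries. Within that sum 5 markers were called higher and 4 lower, from Itgam (log2 change -0.61) to Csf1r (0.41). Neutrophil markers were at trace level but moved with the groups. The 11 of them summed to 4.67 to 5.76 CPM in control and 7.44 to 9.30 CPM in serine/glycine-free libraries, with S100a8 and Mmp8 higher and the means of Ly6g, Elane and Mpo at or under 0.0421 CPM in both groups. The 7 lymphocyte markers found, nearly all Cd79b, summed to 43.4 to 51.2 and 32.2 to 38.9 CPM. Stromal, dendritic, erythroid and mast cell markers summed to at most 2.23 CPM in any library. The dependence of level on gene length also moved with the groups: a doubling of length went with 0.0045 to 0.042 higher log2 CPM in the control libraries, and with values from -0.058 to 0.00015 in the others, relative to the mean of all libraries. Where removing that trend makes or ends a call of a named gene, this is stated, for some genes without the value. Some called changes that it moves by over 1.5 times are given with their value. The part of these differences in the results was not tested further.

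Antioxidant response elements share the core TGACNNNGC or TGAGNNNGC. Both strands of the 250 bases before each gene start were searched, with sequences from RefSeq on GRCm38.p6. Of the 10 genes, 9 matched an entry in the table, Prdx6 being the exception, and 4 of the 9 held a match. The same search found a match to either core for 25.7% of all 27025 listed genes and for 30.1% of the 9301 of them that were also tested for expression. By promoter, TGACNNNGC was in 10.2% and TGAGNNNGC in 14.4% of 32851. The windows of these 4 genes are shown because they hold the matches, and that of Akr1b8 because it holds none although this gene changed most. Capitals mark the matches, and each window reads 5′ to 3′ on the gene's strand, ending at the base before the start.
Srxn1 (chr2:152105274-152105523, plus strand): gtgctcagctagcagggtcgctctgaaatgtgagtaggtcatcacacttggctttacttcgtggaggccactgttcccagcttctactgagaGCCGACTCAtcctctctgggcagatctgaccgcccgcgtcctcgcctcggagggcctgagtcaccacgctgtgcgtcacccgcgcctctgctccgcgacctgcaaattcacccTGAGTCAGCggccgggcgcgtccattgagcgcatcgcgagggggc
Prdx1 (chr4:116685349-116685598, plus strand): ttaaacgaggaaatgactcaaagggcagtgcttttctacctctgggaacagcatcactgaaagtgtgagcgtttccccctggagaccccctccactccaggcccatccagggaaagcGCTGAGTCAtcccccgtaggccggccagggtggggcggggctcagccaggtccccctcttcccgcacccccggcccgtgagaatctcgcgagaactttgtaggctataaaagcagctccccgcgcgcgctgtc
Txnrd1 (chr10:82858956-82859205, plus strand): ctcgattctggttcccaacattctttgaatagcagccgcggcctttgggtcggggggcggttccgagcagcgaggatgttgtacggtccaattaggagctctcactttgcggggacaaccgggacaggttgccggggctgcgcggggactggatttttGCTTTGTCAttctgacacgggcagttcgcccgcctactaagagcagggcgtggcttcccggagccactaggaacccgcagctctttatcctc
Nfe2l2 (chr2:75704664-75704913, minus strand): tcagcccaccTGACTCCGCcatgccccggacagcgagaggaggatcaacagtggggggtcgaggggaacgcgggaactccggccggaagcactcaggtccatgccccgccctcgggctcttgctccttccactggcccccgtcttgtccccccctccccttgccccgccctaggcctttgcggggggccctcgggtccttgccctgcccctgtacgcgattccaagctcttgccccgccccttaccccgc
Akr1b8 (chr6:34353896-34354145, plus strand): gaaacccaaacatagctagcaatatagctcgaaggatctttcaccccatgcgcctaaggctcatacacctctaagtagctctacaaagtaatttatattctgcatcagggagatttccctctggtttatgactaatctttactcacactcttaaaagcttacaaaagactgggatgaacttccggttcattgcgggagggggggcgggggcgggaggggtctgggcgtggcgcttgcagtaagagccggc

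In the Srxn1 window TGAGTCAGC starts 45 bases before the gene start, and GCCGACTCA starts 158 bases before it, a match that reads TGAGTCGGC on the other strand. The Prdx1 match, GCTGAGTCA, starts 133 bases before the start and reads TGACTCAGC on the other strand. The nearer Srxn1 match and the Prdx1 match contain TGACTCA, the site of AP-1 factors, on one of the strands by their letters alone. Both windows also hold TGACTCA on one of the strands outside the capitals. TGACTCA was in 4.46% of all promoters. The longer TGACTCAGC was in 0.390% of all promoters and TGAGTCAGC in 0.347%. Txnrd1 has 3 listed starts, and only the window of the start shown held a match, GCTTTGTCA, which starts 92 bases before that start and reads TGACAAAGC on the other strand. In the Nfe2l2 window TGACTCCGC starts 240 bases before the gene start. A match describes letters and not binding, and the windows of Keap1, Txn1, Cat, Nqo1 and Akr1b8 say nothing about elements farther away.

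Nfe2l2 (Entrez 18024, chromosome 2, 75675513 to 75704663, minus strand) stood at 384, 376, 386 and 398 CPM in control replicates 1 to 4 and at 425, 419, 425 and 409 CPM in the serine/glycine-free replicates. All serine/glycine-free libraries were above all controls, by a narrow margin. The log2 change was 0.12 (SE 0.025, adjusted p = 0.00015 by edgeR). In TPM, the authors' length-scaled unit, the groups overlapped, because serine/glycine-free replicate 4 (301 TPM) lay below control replicate 4 (307 TPM). The call remained on that scale (adjusted p = 0.031 by limma).

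Keap1 (Entrez 50868, chromosome 9, 21229730 to 21239332, minus strand), the only gene of the 10 that fell, stood at 72.7, 73.6, 73.4 and 71.2 CPM in control and at 64.7, 67.7, 66.4 and 66.8 CPM without serine and glycine. Every serine/glycine-free library was below every control. The log2 change was -0.13 (SE 0.036, adjusted p = 0.0033 by edgeR). An antisense gene, Gm16754, is annotated over Keap1 exons. Gm16754 is not among the deposited genes, so its own level is not known. Strand use in the counting is not given in the sources used here, so reads of the 2 genes cannot be told apart. Nfe2l2 and Keap1 thus moved in opposite directions. Within each library the ratio of Nfe2l2 to Keap1 in TPM was 6.98, 6.80, 6.94 and 7.44 in control and 8.69, 8.23, 8.47 and 8.03 without serine and glycine. This ratio does not depend on the scaling between libraries, and its ranges did not overlap.

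**Figure D1:**
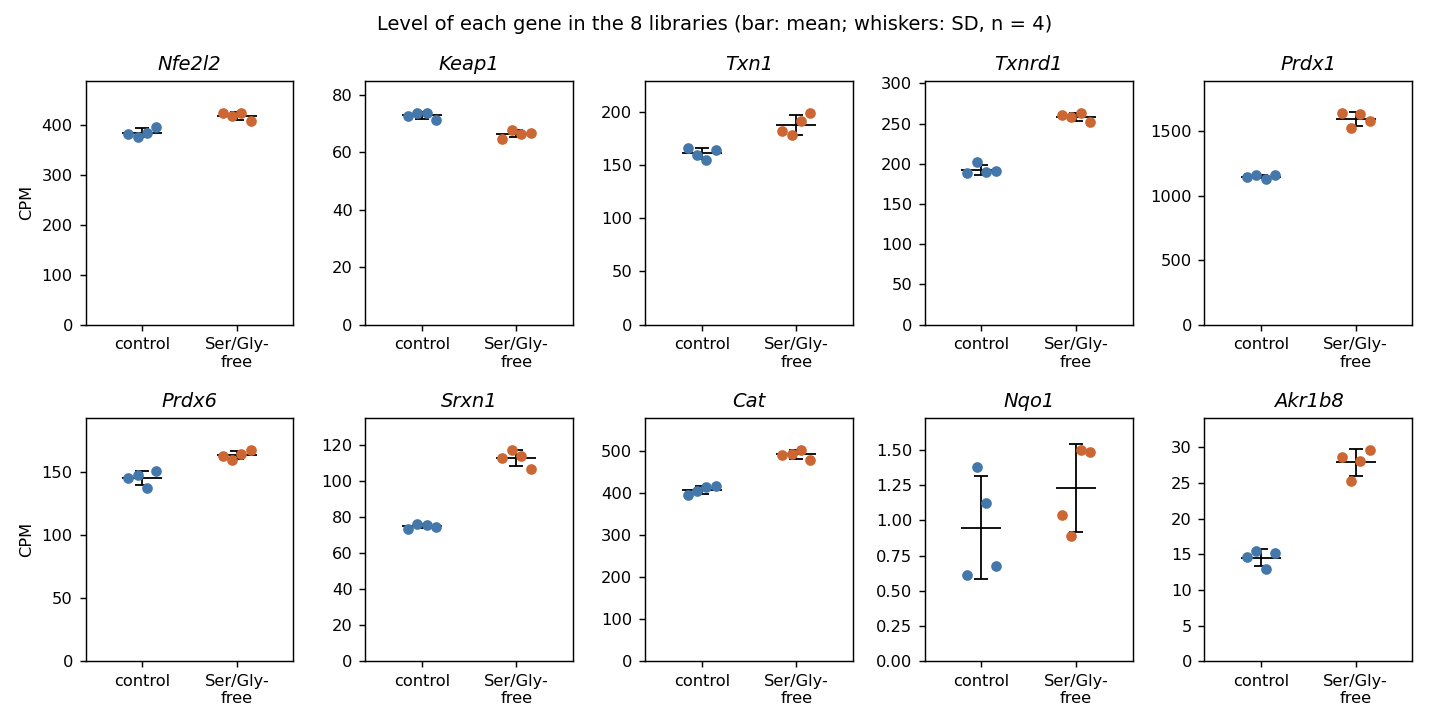
Level of each of the 10 genes in CPM (vertical axes start at 0 and differ between panels), each point being 1 library. Bars are means and whiskers SD over 4 libraries. The groups overlap only for Nqo1, and Keap1 alone is lower in the serine/glycine-free libraries.

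Of the thioredoxin pair, the reductase changed more than its substrate. Txn1, which encodes cytosolic thioredoxin (Entrez 22166, chromosome 4, 57943373 to 57956411, minus strand), stood at 166, 160, 155 and 164 CPM in control and at 182, 178, 191 and 199 CPM without serine and glycine. The groups did not overlap, and the log2 change was 0.22 (SE 0.032, adjusted p = 7.0e-07 by edgeR). Txn1 is the shortest transcript of the 10, and with the length trend removed its log2 change was 0.14 (adjusted p = 2.4e-05). Txnrd1, which encodes the selenoenzyme that reduces thioredoxin (Entrez 50493, chromosome 10, 82833951 to 82897724, plus strand), stood at 188, 202, 190 and 191 CPM in control and at 261, 258, 263 and 251 CPM without serine and glycine. The lowest serine/glycine-free library was well above the highest control, and the log2 change was 0.42 (SE 0.028, adjusted p = 1.8e-16). The ratio of Txn1 to Txnrd1 in TPM lay between 2.85 and 3.19 in control and between 2.49 and 2.85 without serine and glycine. Those ranges almost touched, with serine/glycine-free replicate 4 at 2.846 and control replicate 2 at 2.850.

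Prdx1, a thioredoxin-dependent peroxidase and the most abundant transcript of the 10 (Entrez 18477, chromosome 4, 116685599 to 116700000, plus strand), stood at 1145, 1159, 1134 and 1161 CPM in control and at 1644, 1524, 1633 and 1582 CPM without serine and glycine. Both groups were tight and far apart. The log2 change was 0.47 (SE 0.023, adjusted p = 9.4e-21 by edgeR). Srxn1 encodes sulfiredoxin, which restores peroxiredoxins that were over-oxidized by peroxide (Entrez 76650, chromosome 2, 152105524 to 152111376, plus strand). It stood at 73.5, 76.0, 75.4 and 74.7 CPM in control and at 113, 117, 114 and 106 CPM in the other group. The log2 change was 0.59 (SE 0.034, adjusted p = 2.6e-18), without overlap between the groups. The windows of these 2 genes hold the TGACTCAGC and TGAGTCAGC matches shown above, and a link between those letters and the changes was not tested.

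Prdx6 is a peroxiredoxin that uses glutathione, not thioredoxin, as its reductant (Entrez 11758, chromosome 1, 161240112 to 161251210). It stood at 146, 148, 138 and 151 CPM in control and at 163, 160, 164 and 168 CPM without serine and glycine. The change was small and without overlap, at a log2 change of 0.17 (SE 0.030, adjusted p = 1.6e-05 by edgeR). Prdx1 and Prdx6 moved by unequal amounts: their ratio in TPM was 13.5 to 14.5 in control and 16.5 to 17.7 without serine and glycine. The near-identical copy Prdx6b had means of at most 0.0278 CPM. Cat encodes catalase, the peroxisomal enzyme that breaks down hydrogen peroxide without a thiol (Entrez 12359, chromosome 2, 103453904 to 103485153, minus strand). It stood at 395, 403, 414 and 415 CPM in control and at 491, 493, 502 and 477 CPM without serine and glycine. All serine/glycine-free libraries were higher, with a log2 change of 0.27 (SE 0.025, adjusted p = 4.6e-12).

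Akr1b8, an aldo-keto reductase that reduces reactive aldehydes with NADPH (Entrez 14187, chromosome 6, 34354146 to 34368461, plus strand), stood at 14.6, 15.4, 12.9 and 15.2 CPM in control. It stood at 28.7, 25.2, 28.0 and 29.7 CPM without serine and glycine, far above every control. The log2 change was 0.94 (SE 0.063, adjusted p = 2.7e-16 by edgeR), which ranked 87 from the highest among the 11700 tested genes. Akr1b8 belongs to a family of similar genes, so reads shared with a relative could be misplaced. All 80 count values of the 10 genes were whole numbers at a tolerance of 1e-06, Akr1b8 included. Of its relatives, aldose reductase Akr1b3 rose from 265 ± 7.84 to 393 ± 11.7 CPM (SD, n = 4; log2 change 0.57, adjusted p = 2.9e-21). Akr1b10 stood at 54.4 ± 2.31 and 55.4 ± 1.34 CPM (log2 change 0.027, adjusted p = 0.66), and Akr1b7 was at trace level, with means of at most 0.0847 CPM.

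Nqo1 encodes a quinone reductase that is a textbook NRF2 target in many tissues (Entrez 18104, chromosome 8, 107388225 to 107403205, minus strand). Its transcript was scarce in these macrophages. Control replicates 1 to 4 had 11, 25, 20 and 12 counts and the serine/glycine-free replicates 19, 16, 27 and 26, which correspond to 0.615, 1.38, 1.12 and 0.675 CPM and to 1.04, 0.888, 1.503 and 1.486 CPM. The groups overlapped. The log2 change was 0.37 (SE 0.26, adjusted p = 0.285 by edgeR), with a 95% interval from -0.15 to 0.89. The interval holds 0 and also the changes of 8 of the other 9 genes, that of Akr1b8 (0.94) being above it. The summed counts were 68 in control (exact 95% Poisson interval 52.8 to 86.2) and 88 without serine and glycine (70.6 to 108.0). A difference was not detectable at this depth. Leaving out 1 library moved the log2 change to between 0.21 (without control replicate 1) and 0.61 (without control replicate 2), with no call. Over the 8 libraries, the 5 genes of at least 5 CPM with the profile nearest to that of Nqo1 were Svbp, Tnfsf9, Cby1, Zbtb32 and Siah1a. Their root mean square differences, on log2(CPM + 0.5) centred per gene, were 0.154, 0.179, 0.186, 0.187 and 0.195, among 9742 genes compared. At these counts, the profile of Nqo1 is mostly spread between libraries of a group, with a coefficient of variation of 38.6% in control and 25.4% without serine and glycine.

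**Figure D2:**
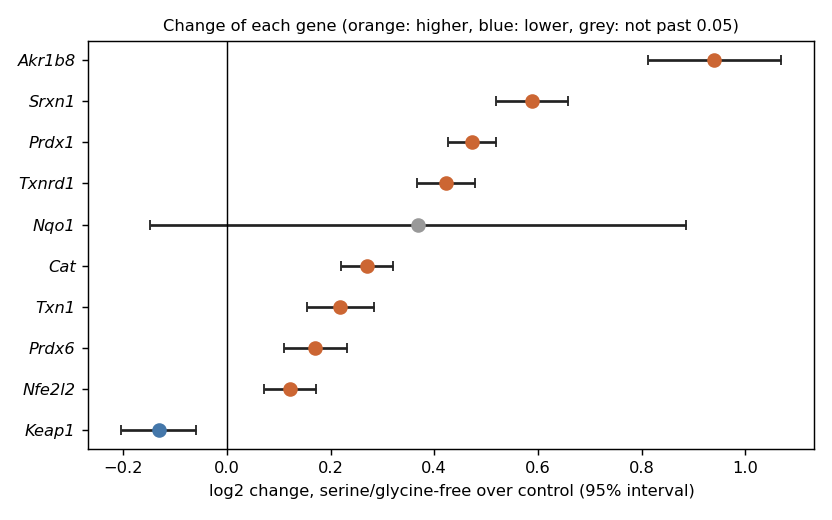
Log2 change of the 10 genes, serine/glycine-free over control (horizontal axis), with 95% intervals from the edgeR fit. The points run from -0.13 for Keap1 to 0.94 for Akr1b8, and the interval of Nqo1 alone includes 0.

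Levels of different genes can be compared in TPM. Prdx1 led by far, at 1646 ± 23.1 TPM in control and 2234 ± 76.1 TPM without serine and glycine (SD, n = 4). Then came Txn1 (324 TPM in control), Cat (308 TPM) and Nfe2l2 (298 TPM), whose neighbours in this order overlapped in control. Without serine and glycine Txn1 (369 TPM) and Cat (363 TPM) still overlapped, and Nfe2l2 (318 TPM) lay below both. Prdx6 and Txnrd1 overlapped in control, at 118 and 107 TPM. They stood at 130 and 141 TPM without serine and glycine, with Txnrd1 above Prdx6 in every library. Srxn1 followed, at 51.1 and 75.2 TPM. Keap1 was above Akr1b8 in control, at 42.4 against 22.8 TPM. Their order changed without serine and glycine, at 38.0 against 42.8 TPM, again without overlap. Nqo1 was lowest in both groups, at 1.23 ± 0.488 and 1.55 ± 0.375 TPM. Summed over the 10 genes, the level was 2870 to 2955 TPM in control and 3597 to 3796 TPM without serine and glycine, with Prdx1 the largest share.

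**Figure D3:**
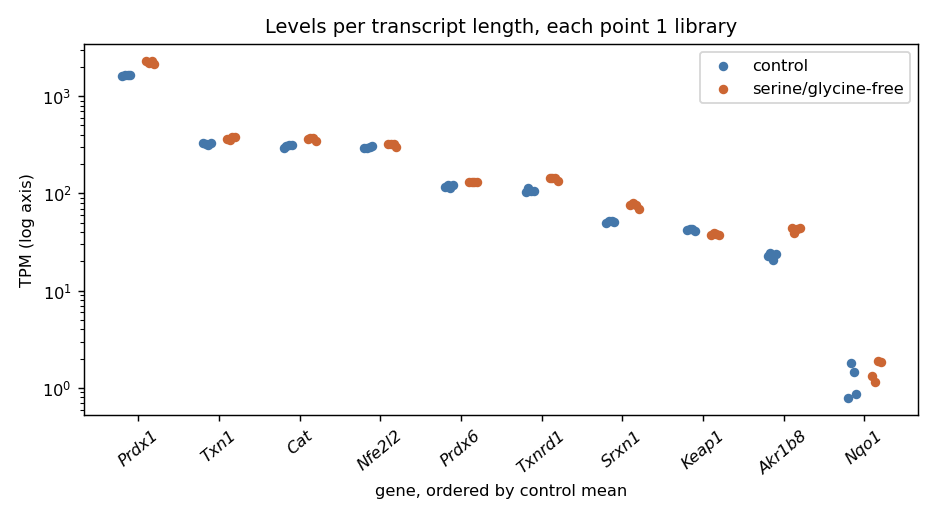
Levels of the 10 genes in TPM on a log axis, ordered by the control mean, each point being 1 library. Prdx1 stands at over 1600 TPM in every library and Nqo1 at under 2 TPM, and Akr1b8 passes Keap1 in the serine/glycine-free group.

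Further lists put the 10 genes beside others of the pathway: NRF2 regulators, 3 groups listed as NRF2 targets, and the thioredoxin and peroxiredoxin system. Of their 87 genes 80 were tested: 38 rose, 9 fell and 33 did not pass, with a median log2 change of 0.10. Over all tested genes 15.9% were higher and 17.3% lower, at a median of 0.0074. Removing the length trend left 32 of the 80 higher and 10 lower. Several of these genes had been reported from the same libraries before the lists were made, so the counts are not independent evidence of a direction. Which factor controls each listed gene was not tested.

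Among 15 tested partners and regulators, 3 rose, 5 fell and 7 did not pass (median log2 change -0.042), beside 15.9% higher and 17.3% lower over all tested genes. Removing the length trend left 2 higher and 4 lower. Bach1, which encodes a repressor that competes with NRF2 for the same elements, had 153 ± 4.38 CPM in control and a lower level, 135 ± 4.11 CPM, without serine and glycine (SD, n = 4). Its log2 change was -0.18 (SE 0.031, adjusted p = 5.3e-06 by edgeR). The ratio of Nfe2l2 to Bach1 in TPM was 5.96 to 6.33 in control and 7.23 to 7.74 without serine and glycine, so the groups did not overlap in it. Sqstm1 encodes p62, which sequesters KEAP1 and is itself an NRF2 target, and it rose from 614 ± 12.7 to 755 ± 23.8 CPM (log2 change 0.30). The kinase gene Gsk3b (-0.18, and -0.12 with the length trend removed) and the coactivator gene Crebbp (-0.27) fell. The small MAF gene Mafg stood at -0.0099 (adjusted p = 0.84). Maff (0.44) and Rbx1 (0.13) were the other two that rose, and Ep300 (-0.19) and Nfe2l1 (-0.071) the other two that fell. These 4 were chosen after their values were seen, and Rbx1 had non-whole counts in 8 libraries, so its level is uncertain. The calls of Rbx1 (adjusted p up to 0.122) and Nfe2l1 (up to 0.0877, without control replicate 1) were lost under several alternatives, removal of the length trend among them. That of Ep300 was kept under all 17 alternatives, with log2 changes from -0.22 to -0.13.

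Of 13 tested glutathione and cystine targets, 9 rose, 0 fell and 4 did not pass (median log2 change 0.28). The shares over all tested genes were 15.9% higher and 17.3% lower. Removing the length trend left 9 of the 13 higher and 1 lower, Gstp1, a gene chosen after its value was seen. The glutathione transferase gene Gsta3 went from 2.31 ± 0.323 to 7.35 ± 0.589 CPM (SD, n = 4; log2 change 1.67, adjusted p = 4.7e-15 by edgeR). Gclm, the modifier subunit of glutamate-cysteine ligase, rose by a log2 change of 1.12, and Gclc, its catalytic subunit, by 0.28. Gstm1 (0.74), Mgst1 (0.69) and the cystine importer gene Slc7a11 (0.56) also rose. Gsta3 and Gstm1 belong to families of close paralogs, with whole counts in all libraries.

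Of 21 tested NADPH and carbonyl targets, 11 rose, 1 fell and 9 did not pass (median log2 change 0.20). The shares over all tested genes were 15.9% higher and 17.3% lower. NADPH is the electron source of thioredoxin reductase. Taldo1, transaldolase of the pentose phosphate pathway, went from 204 ± 5.22 to 298 ± 13.3 CPM (SD, n = 4; log2 change 0.55). Besides Akr1b3, the esterase gene Esd (0.66) and the NADPH-forming isocitrate dehydrogenase gene Idh1 (0.37) had the smallest p and rose. The single fall was that of the epoxide hydrolase gene Ephx1 (-0.15, adjusted p = 0.032 by edgeR), chosen after its value was seen. Its call was lost under 6 of 17 alternatives. They include leaving out control replicate 1, 3 or 4 or serine/glycine-free replicate 1 or 3. Leaving out serine/glycine-free replicate 3 gave the highest adjusted p, 0.107. Of 9 heme and iron targets, 6 rose, 0 fell and 3 did not pass (median log2 change 0.20). Over all tested genes 15.9% were higher and 17.3% lower. Heme oxygenase Hmox1 went from 518 ± 8.91 to 701 ± 13.7 CPM (log2 change 0.44). Ftl1, the ferritin light chain (0.38, with non-whole counts in 8 libraries), Slc48a1 (0.23) and Fech (0.19) also rose.

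In the rest of the thioredoxin and peroxiredoxin system, 22 genes were tested, of which 9 rose, 3 fell and 10 did not pass (median log2 change 0.072), beside 15.9% higher and 17.3% lower over all tested genes. Removing the length trend left 4 higher and 4 lower, with a median of -0.0065. Txnip, which encodes an inhibitor that binds thioredoxin, had 362 ± 4.10 CPM in control and 306 ± 7.54 CPM without serine and glycine (SD, n = 4). Its log2 change of -0.24 (SE 0.026) had an adjusted p of 1.7e-10 by edgeR. Sesn2 (-0.29) fell, as did Sesn1 (-0.21), which was chosen after its value was seen. Both encode sestrins, stress-induced regulators of mTORC1. The methionine sulfoxide reductase gene Msrb1 rose from 63.3 ± 2.36 to 90.2 ± 5.27 CPM (0.51), and the glutaredoxin gene Glrx by 0.19.

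Of 3 mitochondrial proteins of the system that were chosen by name, no gene was called. They do not stand for all mitochondrial proteins of this list, of which Prdx5, given below, is another. Txn2 stood at 0.013 (adjusted p = 0.80 by edgeR), Txnrd2 at -0.054 (adjusted p = 0.48) and Prdx3, the mitochondrial peroxiredoxin, at -0.073 (adjusted p = 0.081). Their 95% intervals ran from -0.053 to 0.079 for Txn2, -0.16 to 0.054 for Txnrd2 and -0.14 to -0.0071 for Prdx3. Their difference from Txn1, Txnrd1 and Prdx1 was not tested. With the length trend removed Prdx3 passed, at -0.13 (adjusted p = 0.00055). Of the other peroxiredoxins, Prdx2 (0.086, adjusted p = 0.016), Prdx4 (0.18, adjusted p = 0.0035) and Prdx5 (0.12, adjusted p = 0.0050) rose. All of these 3 calls were lost with the length trend removed, with log2 changes of 0.029, 0.097 and 0.0075 and adjusted p of 0.437, 0.109 and 0.862. Prdx2 also lost its call without control replicate 1 (adjusted p = 0.054) and without serine/glycine-free replicate 4 (adjusted p = 0.052). Prdx1 (0.41) and Txnrd1 (0.43) kept their calls with that trend removed.

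**Figure D4:**
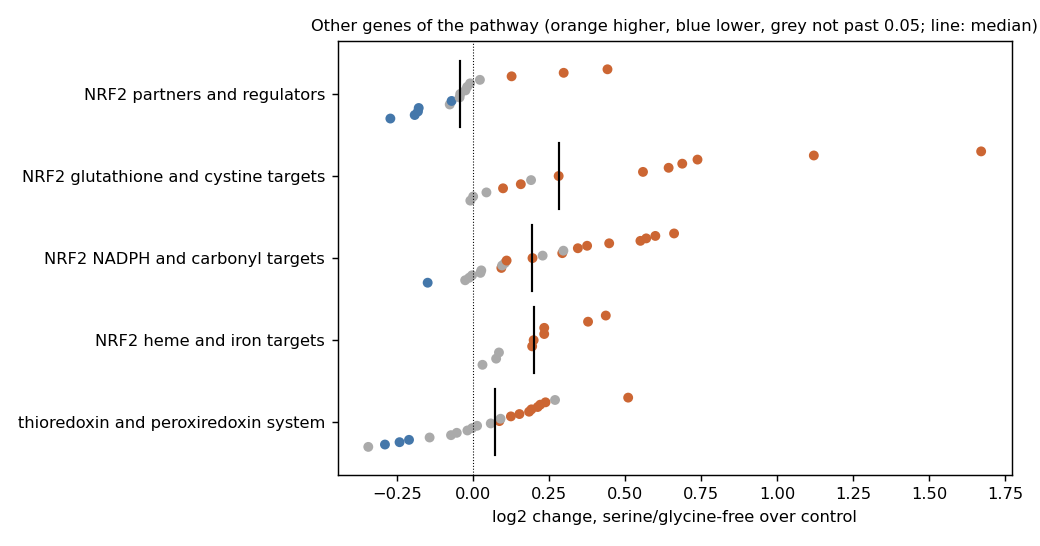
Log2 change of each tested gene of the 5 other lists, serine/glycine-free over control (horizontal axis). Each point is 1 gene, coloured by its call, and the black line is the list's median, which runs from -0.042 for the regulators to 0.28 for the glutathione and cystine targets.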

How the data were processed

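Per the labels' protocols, total RNA came from Trizol extraction and libraries from oligo-dT beads. The submitters' processing notes name BWA, Bowtie2, RSEM and GRCm38.p6, without versions. The authors deposited estimated counts, FPKM and TPM per gene and library. The estimated counts, rounded to whole numbers, were tested. FPKM, as deposited, gave each gene's effective length only, and TPM, as deposited by the authors, served to compare levels between genes and for an alternative test. The table's 6 group-average columns stayed out.

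Of the genes, 11700 passed edgeR's filter, with a minimum count of 10 and a minimum total of 15. The test was edgeR's robust quasi-likelihood F test (version 4.0.16, R 4.3.3) after TMM scaling, with 6 residual degrees of freedom and a threshold of 0.05 after Benjamini-Hochberg adjustment. Each log2 change sets the serine/glycine-free group over control, with its SE from the F statistic. Alternatives were other tools (DESeq2 1.42.0, limma-voom with limma 3.58.1, and limma on log2(TPM + 1)), RLE or library-size scaling, no filter or one at 5 CPM, the replicate block, 1 library left out, and removal of each library's length trend. The steps were tested on simulated data.

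The members and lists were chosen with earlier results of these data known. Genes named were the 10 members, 14 further genes listed by name, up to 4 genes of each list with the smallest p, and the 5 nearest to Nqo1 in profile. Relatives of Akr1b8 and Prdx6, and the genes marked in the text, are additions. Coordinates were matched by Entrez ID to RefSeq genes on GRCm38.p6, and antisense genes to GENCODE on GRCm38.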

Additional observations from a re-analysis of the deposited data

Results flagged for a closer look

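Single values in 3 groups stood apart within their group by Dixon's ratio of the gap to the range (above the 95% critical value for 4 libraries). Txnrd1 in control replicate 2 (202 CPM, ratio 0.845) lay above the other control libraries at 188 to 191 CPM. Akr1b3 in serine/glycine-free replicate 4 (411 CPM, ratio 0.850) lay above the others at 386 to 390 CPM. Ep300 in serine/glycine-free replicate 4 (186 CPM, ratio 0.838) lay below the others at 201 to 204 CPM. Over 45 genes, 90 groups were screened, and chance flags about 1 in 20 groups. Without control replicate 2 the log2 change of Txnrd1 was 0.45.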

How the results depend on the processing

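Under all 17 alternatives 8 of the 10 genes were called higher and Keap1 lower. Nqo1 was not called under the 16 that tested it, at log2 changes of 0.21 to 0.61 and adjusted p of 0.103 to 0.599; a mean of at least 5 CPM left it out. All genes called numbered 3061 with DESeq2 to 3901 with no filter, against 3882, and 3384 to 3760 with 1 library left out. Genes of the 5 lists called higher numbered 32 to 39 and lower 7 to 10. The labels state no pairing by replicate number. Deviations from the group means correlated at -0.048, 0.061, 0.051 and -0.094 between libraries of the same number. Such values show no shared pattern but cannot exclude a shared origin. With the replicate block 3655 genes were called, 8 of the 10 higher and 1 lower, and the call of Nfe2l1 was the only one lost among the genes of the members and lists named above (adjusted p = 0.0607). No scaling moved the median of all genes by over 0.1 on the log2 scale. With 1 library left out, Mafg ran from -0.025 to 0.0025 and Txn2 from -0.015 to 0.030. Mafg turned from -0.0099 to 0.0025 without control replicate 2 and to 0.015 with the length trend removed. Txn2 turned from 0.013 to -0.015 without control replicate 3, -0.019 in log2(TPM + 1) and -0.053 with the length trend removed. None of these passed, and the cause was not tested. In log2(TPM + 1), Prdx2 lost its call (0.055, adjusted p = 0.139) and Prdx3 passed (-0.11, adjusted p = 0.019). The direction of Nqo1 remained unresolved.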
